A study of Mus musculus with 15 samples.

Results

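The cytosolic ribosomal protein genes were followed across the tibialis anterior muscle of wild-type and *Mtm1*-deficient mice with and without tamoxifen. They were chosen by name. A row of the count table was taken when its Ensembl identifier belonged, in the GENCODE annotation of GRCm38, to a protein-coding gene whose symbol starts with Rpl or Rps followed by a number, or to *Rplp0*, *Rplp1*, *Rplp2* or *Rpsa*. Pseudogenes and the Rps6k kinases were left out. This gave 85 of the 30672 rows, of which 81 passed the filter on low counts, as did 15533 genes in all. The rule also took *Rps19bp1*, which encodes a binding partner of the S19 protein and no ribosomal protein, and *Rpl7l1*, a paralogue of *Rpl7*. *Fau* and *Rack1*, which encode ribosome components under other names, were described apart.

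All 15 mice were males of the 129Pas strain aged 7 weeks. The groups were untreated wild type (WT, n = 4), wild type with tamoxifen (WT + TAM, n = 4), untreated *Mtm1* mutants (Mtm1-/y, n = 4) and mutants with tamoxifen (Mtm1-/y + TAM, n = 3). *Mtm1* is an X-linked gene that encodes the phosphoinositide phosphatase myotubularin, and its loss causes myotubular myopathy. Tamoxifen (TAM) is a modulator of oestrogen receptors, and how it was given is not stated in the sources used here.

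A ribosome joins a small subunit, which reads the mRNA, to a large subunit, which forms the peptide bond, and each holds a fixed set of proteins around its ribosomal RNA. Most of these proteins are made in equal numbers, and their mRNAs start with a run of pyrimidines, the 5′ terminal oligopyrimidine (TOP) motif, through which mTOR complex 1 adjusts their translation. Striated muscle also expresses *Rpl3l*, a paralogue that takes the place of *Rpl3* in the large subunit of mature fibres.

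The start regions of some members are shown because the TOP motif lies at the transcript start. Each line gives the 20 bases before and the 30 bases from the RefSeq transcript start on (GRCm38.p6), 5′ to 3′ on the strand of the gene, with the longest run of C and T in capitals. *Rps2*, *Rpl35* and *Rplp2* had the largest increases in mutant muscle among called members whose log2 CPM averaged 1 or more, *Rpl15* was the member that fell, *Rpl4* was among the most abundant members and *Rpl3l* is the muscle paralogue. The windows lie at chr17:24720043-24720092 (plus strand, *Rps2*), chr2:39005102-39005151 (minus strand, *Rpl35*), chr7:141447631-141447680 (plus strand, *Rplp2*), chr14:18270957-18271006 (minus strand, *Rpl15*), chr9:64173367-64173416 (plus strand, *Rpl4*) and chr17:24727806-24727855 (plus strand, *Rpl3l*).
Rps2: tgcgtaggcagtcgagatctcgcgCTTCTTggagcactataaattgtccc
Rpl35: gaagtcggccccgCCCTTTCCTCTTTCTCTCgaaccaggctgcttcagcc
Rplp2: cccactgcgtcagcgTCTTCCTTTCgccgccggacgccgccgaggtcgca
Rpl15: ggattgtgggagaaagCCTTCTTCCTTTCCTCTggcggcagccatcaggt
Rpl4: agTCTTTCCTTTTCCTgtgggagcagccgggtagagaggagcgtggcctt
Rpl3l: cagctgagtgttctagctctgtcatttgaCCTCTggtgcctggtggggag

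The longest run was 18 bases in *Rpl35*, 17 in *Rpl15*, 14 in *Rpl4*, 10 in *Rplp2*, 6 in *Rps2* and 5 in *Rpl3l*. These lengths hold only for the RefSeq starts shown. A run was counted wherever it lay in the window, also in the 20 bases before the start. The run of *Rpl4* ends before the start shown, and those of *Rps2* and *Rpl3l* begin after it. A run in the window is therefore not by itself a TOP motif. In GENCODE the *Rps2* gene spans chr17:24718116-24721929, so its window lies inside the gene, away from the annotated 5′ end. The windows of *Rpl35*, *Rplp2* and *Rpl15* also lie inside their genes. Runs at other starts of these genes were not examined. Of the 85 members, 65 had a RefSeq start region, and 31 of these (47.7%) held a run of at least 8 pyrimidines in this window, against 18.8% of the 27025 genes with a start region. The letters CTTTCC on the strand of the gene, which can lie inside such a run, were present in 11 of the 65 (16.9%) and in 2.37% of all genes, and on either strand in 18.5% and 4.51%. The letters CCGGAAG, on either strand of the 300 bases around the start, were present in 25 members (38.5%) and 9.14% of all genes. These matches describe the letters and were not tested as sites. The longest run was of similar length in *Rpl35*, which rose in the mutant, and in *Rpl15*, which fell.

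The libraries held between 18042558 and 45823277 counts. *Mtm1* itself was between 13.5 and 17.7 CPM (counts scaled to a common library size) in the 8 wild-type libraries and between 2.91 and 3.71 CPM in the 7 mutant libraries, which fits the labels. Here and below, CPM values are scaled by the trimmed mean of M values (TMM). Markers of fast muscle fibres, the main fibres of this muscle, summed to between 124700 and 201800 CPM per library.

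Transcripts of the ribosomal protein genes were higher in mutant muscle as a group. The 85 genes took 0.325, 0.288, 0.331 and 0.307% of all counts in the WT libraries and 0.345, 0.316, 0.346 and 0.319% in WT + TAM. They took 0.465, 0.419, 0.375 and 0.415% in Mtm1-/y and 0.400, 0.406 and 0.420% in Mtm1-/y + TAM. In this share every mutant library was above every wild-type library, with or without tamoxifen. Scaled by TMM, the summed level rose less, from 3303 ± 267 CPM (SD, n = 4) in WT to 3977 ± 188 CPM (SD, n = 4) in Mtm1-/y, a ratio of 1.20 against 1.34 for the share. On this scale the treated genotypes overlapped, with 3203 to 3782 CPM in WT + TAM and 3751 to 3921 CPM in Mtm1-/y + TAM. The mean was 0.313% ± 0.0195 (SD, n = 4) in WT, 0.332% ± 0.0162 (SD, n = 4) in WT + TAM, 0.418% ± 0.0371 (SD, n = 4) in Mtm1-/y and 0.409% ± 0.0105 (SD, n = 3) in Mtm1-/y + TAM. The median log2 CPM difference of the 81 tested members from their WT mean was lowest at -0.11 in a WT library and highest at 0.56 in Mtm1-/y replicate 1. It was 0.28 to 0.56 in Mtm1-/y, 0.28 to 0.38 in Mtm1-/y + TAM and at most 0.20 in the wild-type libraries.

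**Figure D1:**
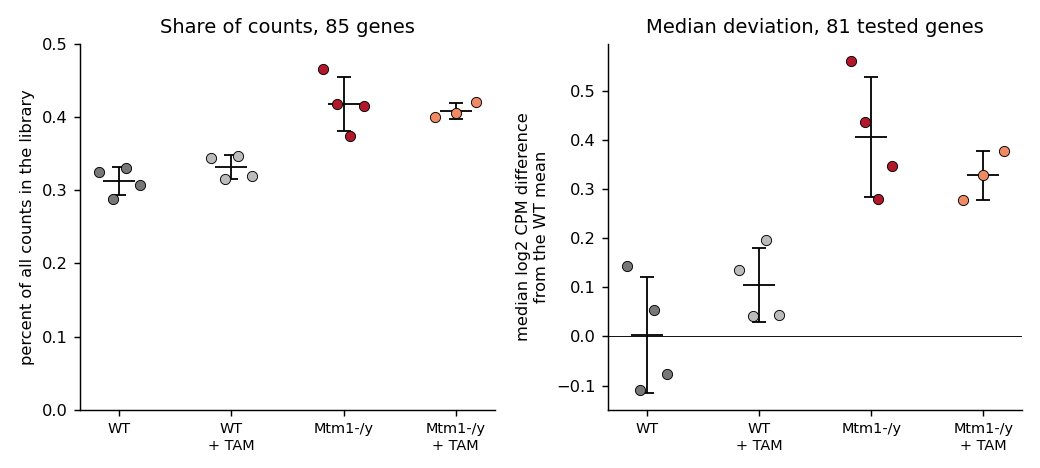
Left, percent of all counts assigned to the 85 ribosomal protein genes in each library. Right, median over the 81 tested genes of the log2 CPM difference from the WT mean. Points are libraries and bars are group mean and SD (n = 4, 4, 4 and 3). All mutant libraries lie above all wild-type libraries in both panels.

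These levels are limited by sequence that the members share with other genes. Processed pseudogenes of ribosomal protein genes are numerous in mammals, and the table held 225 rows with the -ps suffix. The coding sequence of each member was cut into all windows of 50 bases and searched, with 1 mismatch allowed, in every other annotated transcript. In 61 of the 85 members every window was found in another gene, and *Rpl3l* and *Rps19bp1* were among those with no window found elsewhere. Among the 61 were *Rps2*, *Rps28*, *Rplp2*, *Rpl35*, *Rpl15*, *Rpl7a*, *Rpl23*, *Rpl27a*, *Rpl39* and *Rpl3*, which are named below. The median level was 1.37 CPM per kb of merged exons in the 61 members and 45.2 CPM per kb in the other 24. Over the 85 members the share of windows found elsewhere and the level had a Spearman correlation of -0.48, as a description of genes measured in the same libraries. No source used here says how reads that match several genes were counted, so low expression and reads lost to copies cannot be told apart for these members. Merged exon length also includes retained introns of minor transcripts, which lowers a level per kb.

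**Figure D2:**
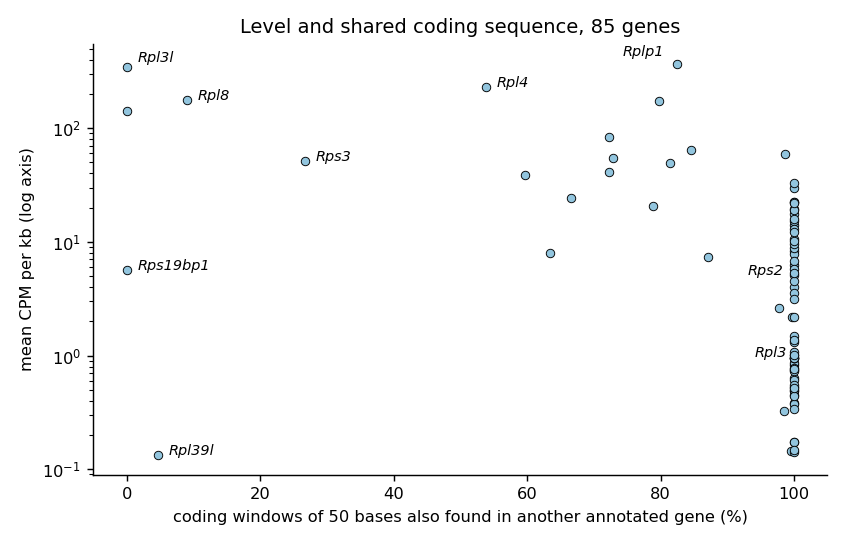
Mean level over the 15 libraries (CPM per kb of merged exons, log axis) of each of the 85 members, against the percent of its 50-base coding windows found in another annotated gene. The members at 100% reach from under 1 CPM per kb upward, and the most abundant members lie to the left of them.

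The highest levels per kb were those of *Rplp1* (371 CPM per kb), which encodes a protein of the stalk that recruits elongation factors, *Rpl3l* (343 CPM per kb) and *Rpl4* (233 CPM per kb). The lowest were *Rpl39l* (0.133 CPM per kb), *Rps29* (0.141 CPM per kb) and *Rpl24* (0.143 CPM per kb). The 4 members that were not tested were *Rpl24*, *Rpl38*, *Rpl39l* and *Rps29*, and 16 members stayed under 50 counts in all libraries.

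To assess the effect of the genotype, Mtm1-/y was compared with WT. Of the 81 tested members 37 rose, 1 fell and 43 did not pass the test (edgeR quasi-likelihood test, adjusted p under 0.05). Thus 45.7% of the tested members rose, against 15.5% of all tested genes, and 14.9% of all tested genes fell. In either direction 30.4% of all tested genes were called, so that the genotype changed much of the transcriptome. The median log2 fold change was 0.40 over the members, a fold of 1.32, and 0.0005 over all genes. Fold changes of single members ran from -0.59 to 1.52 on the log2 scale, and 72 of the 81 were positive.

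Small subunit genes included the largest increase. *Rps2*, a protein of the mRNA entry side, was at 7.21, 5.14, 5.93 and 4.05 CPM in WT and at 21.7, 20.1, 12.5 and 9.94 CPM in Mtm1-/y. It was at 12.1, 9.79, 8.35 and 9.38 CPM in WT + TAM and at 10.1, 10.99 and 9.87 CPM in Mtm1-/y + TAM. The untreated genotypes did not overlap, with a log2 fold change of 1.52 (SE 0.23, edgeR adjusted p = 0.000283), while the treated genotypes lay within the same range. All 833 coding windows of *Rps2* were found elsewhere, in 84 other genes in all, so its level is open to reads of its copies. *Rps28*, another small subunit gene, went from 8.63, 5.41, 6.64 and 5.93 CPM in WT to 12.2, 13.2, 10.3 and 11.3 CPM in Mtm1-/y, a log2 fold change of 0.81 (SE 0.15, edgeR adjusted p = 0.00102). Of the 32 tested small subunit genes 15 rose and 0 fell, with a median log2 fold change of 0.46.

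Of the 48 tested large subunit genes 21 rose and 1 fell, with a median log2 fold change of 0.35. All 3 genes of the stalk rose. *Rplp2* was at 36.4, 22.2, 24.0 and 23.8 CPM in WT and at 55.1, 52.6, 54.5 and 52.6 CPM in Mtm1-/y (log2 fold change 1.01, SE 0.14, edgeR adjusted p = 0.000143). *Rplp1* was at 157, 128, 129 and 157 CPM in WT and at 224, 220, 223 and 210.3 CPM in Mtm1-/y (log2 fold change 0.62, SE 0.10, edgeR adjusted p = 0.00043). *Rplp0*, which anchors the other stalk proteins, was at 91.8, 73.7, 82.0 and 76.0 CPM in WT and at 129, 109.6, 106.8 and 106.6 CPM in Mtm1-/y, with a log2 fold change of 0.48 (SE 0.10, edgeR adjusted p = 0.00176). In each of the 3 genes all Mtm1-/y libraries were above all WT libraries.

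*Rpl35*, a protein near the exit of the peptide tunnel, was at 6.49, 3.95, 3.63 and 6.04 CPM in WT and at 13.5, 9.11, 10.52 and 8.56 CPM in Mtm1-/y. Its log2 fold change was 1.04 (SE 0.22, edgeR adjusted p = 0.00228). Its exons overlap *Arpc5l* and *Wdr38* on the other strand over 883 bases, and no source used here says whether reads were counted by strand. *Rpl10a*, the protein of the L1 stalk, was at 4.35, 3.08, 4.60 and 3.40 CPM in WT and at 14.1, 6.65, 5.50 and 4.79 CPM in Mtm1-/y. Replicate 1 of the mutants was far above the other 3, and the log2 fold change of 1.01 (SE 0.27, edgeR adjusted p = 0.0122) became 0.54 without it, still called.

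The smallest increases that were called, among members whose log2 CPM averaged 1 or more, were those of *Rps4x* (log2 fold change 0.31), *Rpl22* (0.32), *Rpl14* (0.33) and *Rpl32* (0.37). Their SE was between 0.09 and 0.10. *Rps4x* and *Rpl14* were not called in 6 and 4 of the 26 alternative fits, and *Rpl22* and *Rpl32* were called in all of them.

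*Rpl15*, a protein of the large subunit core, was the member that fell. It was at 58.7, 50.9, 50.2 and 46.7 CPM in WT, at 50.2, 47.6, 46.4 and 42.9 CPM in WT + TAM, at 30.1, 34.2, 38.5 and 34.6 CPM in Mtm1-/y and at 41.8, 36.4 and 40.5 CPM in Mtm1-/y + TAM. All 4 Mtm1-/y libraries were under all WT libraries, with a log2 fold change of -0.59 (SE 0.09, edgeR adjusted p = 0.000381), and the call held in all 26 alternative fits. With tamoxifen in both genotypes the log2 fold change was -0.24 (edgeR adjusted p = 0.107). Every coding window of *Rpl15* is found in another gene, and its exons overlap those of *Nkiras1* on the other strand over 105 bases. *Nkiras1* had a log2 fold change of -0.32 in the same comparison (edgeR adjusted p = 0.0402).

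Several abundant members did not pass the test. *Rps3* had a log2 fold change of 0.06 (SE 0.09, edgeR adjusted p = 0.66), *Rpl7* of -0.0039 (SE 0.08, edgeR adjusted p = 0.979), *Rps24* of -0.03 (SE 0.08, edgeR adjusted p = 0.824) and *Rpl4* of 0.25 (SE 0.12, edgeR adjusted p = 0.119). *Rpsa*, the laminin receptor form of a small subunit protein, had a log2 fold change of 0.25 (SE 0.18, edgeR adjusted p = 0.328), and *Rpl10* of 0.50 (SE 0.26, edgeR adjusted p = 0.154). The members thus did not move by one common factor.

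Among the 22 tested members with some coding windows found in no other gene, 14 rose and 0 fell, with a median log2 fold change of 0.39. Some of these were almost wholly shared, such as *Rpl10a*, with 2 of 602 windows found in no other gene. Among the 59 with every window found in another gene, 23 rose and 1 fell, with a median of 0.41. Addition of the counts of -ps rows to the parent gene left the number of called members at 38. A split at a mean log2 CPM of 4 gave 22 of 36 higher above it and 15 of 45 below it, with medians of 0.39 and 0.44.

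**Figure D3:**
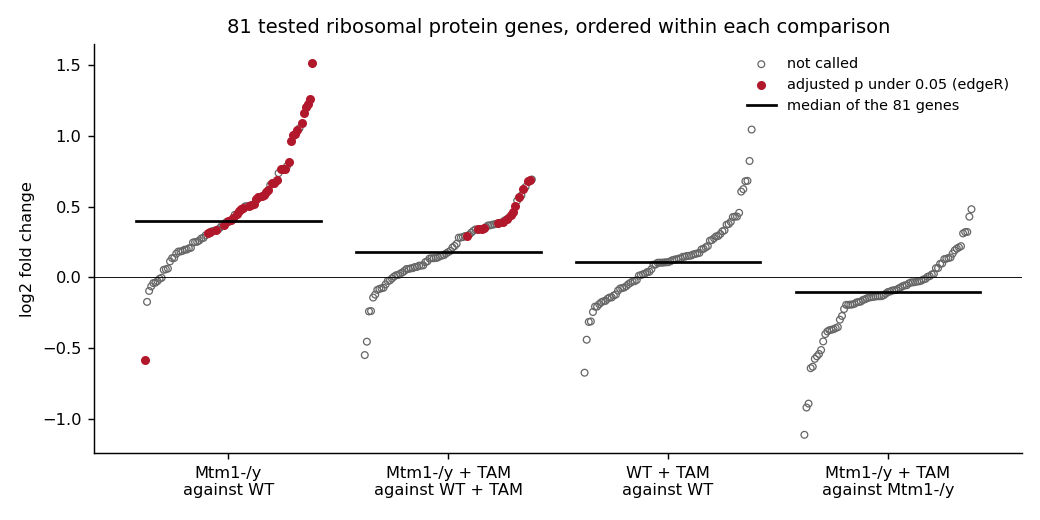
Log2 fold change of the 81 tested ribosomal protein genes in each of 4 comparisons, ordered from lowest to highest within each. Filled points passed the edgeR test at an adjusted p under 0.05, and lines are medians. The median is 0.40 and 0.18 in the genotype comparisons, 0.11 for tamoxifen in WT and -0.10 for tamoxifen in Mtm1-/y.

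The genotypes were also compared under tamoxifen. The group means came from other libraries than above. Both tests came from the same fit of all 15 libraries, with a shared estimate of the spread, so they are not independent. Of the 81 members 14 rose and 0 fell, that is 17.3% higher against 10.6% of all tested genes. Of all tested genes 9.46% fell and 20.1% were called in either direction. The median log2 fold change was 0.18 over the members and -0.02 over all genes. The number called rested on single libraries. Without Mtm1-/y + TAM replicate 2, 5 members rose (6.17%, against 6.05% of all genes in the same fit), and without WT + TAM replicate 4, 7 rose (8.64%, against 8.43%), so that the excess over all genes was gone in both fits. Without Mtm1-/y + TAM replicate 3, 8 rose (9.88%, against 7.79%), and without WT + TAM replicate 2, 8 rose (9.88%, against 8.94%). Without Mtm1-/y replicate 1, 18 of 78 tested members rose (23.1%, against 14% of all genes in the same fit) and 1 fell. In that fit 26.8% of all genes were called in either direction.

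*Rpl23*, which binds Mdm2 besides its place at the subunit interface, was at 22.1, 21.9, 21.3 and 18.9 CPM in WT + TAM and at 31.8, 29.4 and 28.7 CPM in Mtm1-/y + TAM. The treated groups did not overlap, with a log2 fold change of 0.51 (SE 0.08, edgeR adjusted p = 0.000901). Untreated, it was at 23.8, 23.1, 22.8 and 23.9 CPM in WT and at 25.3, 25.3, 23.8 and 28.4 CPM in Mtm1-/y, with a log2 fold change of 0.14 (edgeR adjusted p = 0.206). Other large subunit genes of this kind were *Rpl27a* (log2 fold change 0.68, SE 0.16, edgeR adjusted p = 0.00885), *Rpl13a* (0.62, SE 0.16, edgeR adjusted p = 0.013) and *Rpl39* (0.57, SE 0.12, edgeR adjusted p = 0.00409). Their untreated log2 fold changes of 0.18, 0.14 and 0.30 were not called.

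*Rps19*, *Rps24* and *Rps26*, small subunit genes that are mutated in Diamond-Blackfan anaemia, had log2 fold changes of 0.46, 0.29 and 0.34 between the treated genotypes (edgeR adjusted p = 0.0241, 0.0227 and 0.0359). *Rps9*, *Rps14* and *Rpl14* had 0.34, 0.35 and 0.38 (edgeR adjusted p = 0.0177, 0.0263 and 0.0241). These 6 calls were lost in 2 (*Rps9*) to 7 (*Rps26*) of the 26 alternative fits, and those of *Rps14*, *Rps24*, *Rps26* and *Rpl14* also under the replicate block. Of these 6 genes *Rps19*, *Rps26*, *Rps9* and *Rpl14* were also called in the untreated comparison. In all, 7 members were called in both comparisons, 18.4% of the 38 called untreated and 7 of the 14 called under tamoxifen. Over all tested genes these shares were larger, at 45.3% and 68.7%. The log2 fold change was positive in both for 60 of the 81 members (74.1%) and for 35.9% of all tested genes. The 37 members that rose untreated had a median of 0.60 there and of 0.19 under tamoxifen, and the first value is fixed upward by their choice.

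Tamoxifen was compared within each genotype, which answers how the drug moved these genes in either muscle. In WT, 0 of 81 members were called by edgeR, against 0.309% of all tested genes (0.18% higher and 0.129% lower). These 48 calls over all genes moved to between 11 and 143 when a library was left out, lowest without WT replicate 1 and highest without Mtm1-/y replicate 1. An unadjusted p under 0.05 was found for 15 members, 13 of them higher, and for 11.3% of all tested genes. DESeq2 called 3 members, all higher, beside 1.19% of all genes it tested, namely *Rpl7a* (log2 fold change 0.69, adjusted p = 0.0155), *Rplp1* (0.38, adjusted p = 0.0223) and *Rps2* (0.83, adjusted p = 0.0416), and limma-voom called 0. The median log2 fold change of the members was 0.11, and 55 of 81 were positive. In edgeR without Mtm1-/y replicate 1, *Rpl7a* was called (adjusted p = 0.0281).

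In Mtm1-/y, 0 of 81 members were called for tamoxifen, against 0.0129% of all tested genes. An unadjusted p under 0.05 was found for 8 members, 6 of them lower, and for 5.54% of all tested genes. DESeq2 and limma-voom called 0. The median log2 fold change was -0.10, and -0.03 without Mtm1-/y replicate 1. That library had the highest share of ribosomal protein counts and the highest median deviation of the 15.

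*Rpl7a*, a large subunit protein, was at 13.3, 11.4, 9.47 and 11.6 CPM in WT, at 16.5, 14.99, 21.98 and 19.7 CPM in WT + TAM, at 25.6, 17.9, 17.99 and 16.4 CPM in Mtm1-/y and at 14.2, 11.1 and 14.9 CPM in Mtm1-/y + TAM. It was chosen after its values were seen. All 752 coding windows of *Rpl7a* were found elsewhere, in 156 other genes in all, so its level is open to reads of its copies. The treated mutants lay under the untreated mutants and the treated wild types above the untreated wild types, without overlap in either case. The test of the interaction of genotype and tamoxifen called 0 members in edgeR (smallest adjusted p = 0.248, 0.0% of all genes), with 22 of 81 at an unadjusted p under 0.05, of which 15 were negative, against 10.6% of all genes. DESeq2 called *Rpl7a* (log2 interaction -1.24, adjusted p = 0.00437) and *Rps2* (-1.48, adjusted p = 0.0221), both negative, beside 0.368% of all genes it tested. A difference of the genotype effect with tamoxifen therefore did not pass the test in edgeR for any member.

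**Figure D4:**
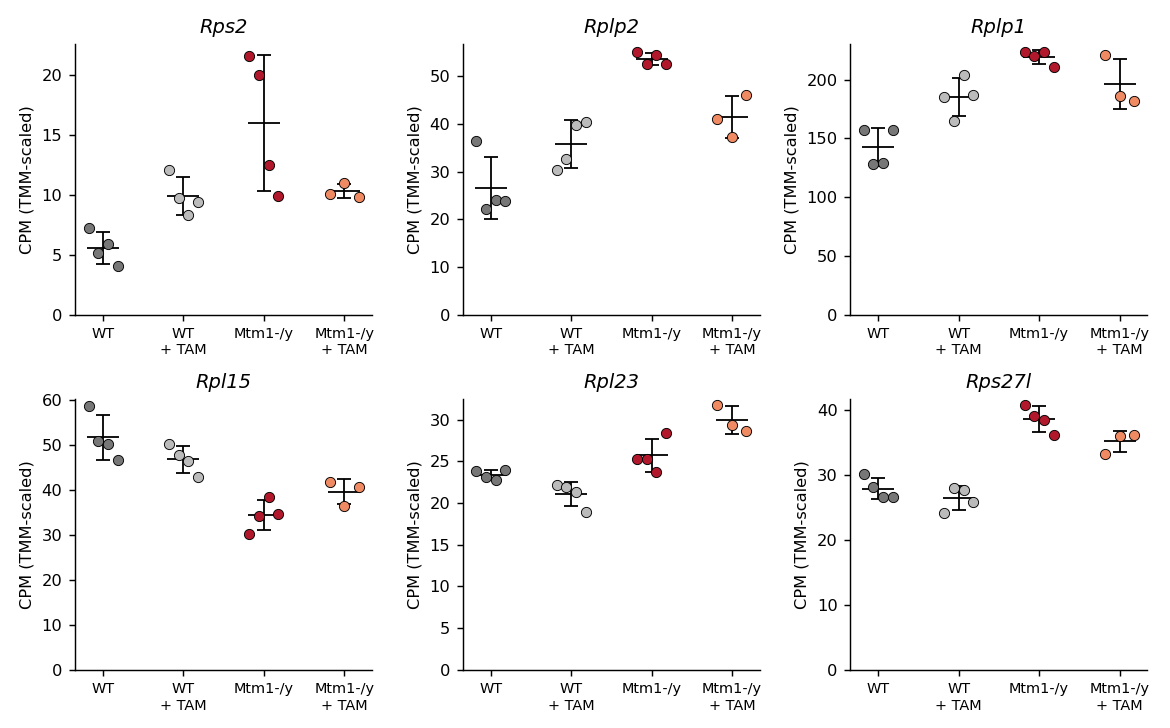
TMM-scaled CPM per library for 6 members, with group mean and SD (n = 4, 4, 4 and 3). The untreated genotypes separate for *Rps2*, *Rplp2*, *Rplp1*, *Rpl15* and *Rps27l*, and the treated genotypes separate for *Rpl15*, *Rpl23* and *Rps27l*.

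The paralogue pair *Rpl3l* and *Rpl3* was compared in each library. Both genes encode the same position of the large subunit. *Rpl3l* lies at chr17:24727820-24736143 on the plus strand and *Rpl3* at chr15:80077791-80091868 on the minus strand of GRCm38. Their coding sequences of 1224 and 1212 bases were 73.1% identical over 1227 aligned columns. The first 60 coding bases are shown, with the 13 differences in capitals, because they show why reads of the pair can be told apart.
Rpl3: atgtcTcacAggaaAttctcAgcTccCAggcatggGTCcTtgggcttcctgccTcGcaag
Rpl3l: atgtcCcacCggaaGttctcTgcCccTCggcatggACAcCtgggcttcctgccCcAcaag

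*Rpl3l* was at 658, 565, 555 and 528 CPM in WT, at 478, 506, 566 and 569 CPM in WT + TAM, at 507, 562, 679.9 and 539.7 CPM in Mtm1-/y and at 574, 565 and 607 CPM in Mtm1-/y + TAM. The 4 groups overlapped. The log2 fold change was -0.01 (SE 0.11, edgeR adjusted p = 0.954) between the untreated genotypes and 0.14 (SE 0.12, edgeR adjusted p = 0.458) between the treated ones. *Rpl3* was at 2.31, 2.49, 2.08 and 2.93 CPM in WT, at 2.90, 2.60, 1.59 and 1.98 CPM in WT + TAM, at 3.85, 2.90, 1.52 and 2.35 CPM in Mtm1-/y and at 3.18, 2.14 and 2.24 CPM in Mtm1-/y + TAM. Its log2 fold change between the untreated genotypes was 0.11 (SE 0.26, edgeR adjusted p = 0.778).

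*Rpl3l* had between 9919 and 26745 counts and *Rpl3* between 47 and 147. Per kb of merged exons, with 1 count added, the ratio of *Rpl3l* to *Rpl3* was between 253 and 844. The mean log2 ratio was 8.81 ± 0.29 (SD, n = 4) in WT, 8.83 ± 0.51 (SD, n = 4) in WT + TAM, 8.75 ± 0.73 (SD, n = 4) in Mtm1-/y and 8.80 ± 0.33 (SD, n = 3) in Mtm1-/y + TAM. The difference between Mtm1-/y and WT was -0.06 (SE 0.39, two-sided exact permutation p = 0.886). The 3 other comparisons differed by between -0.02 and 0.05 with exact permutation p from 0.914 to 1.0, and all 4 had an adjusted p of 1.0. The smallest p that 4 and 4 libraries allow is 0.0286, and 3 and 4 libraries cannot go under 0.0571, so that no adjusted p over the 4 comparisons can go under 0.0571. All 1163 coding windows of *Rpl3* were found in another gene and 0 of the 1175 windows of *Rpl3l*, so the size of the ratio cannot be told apart from reads of *Rpl3* lost to its copies.

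**Figure D5:**
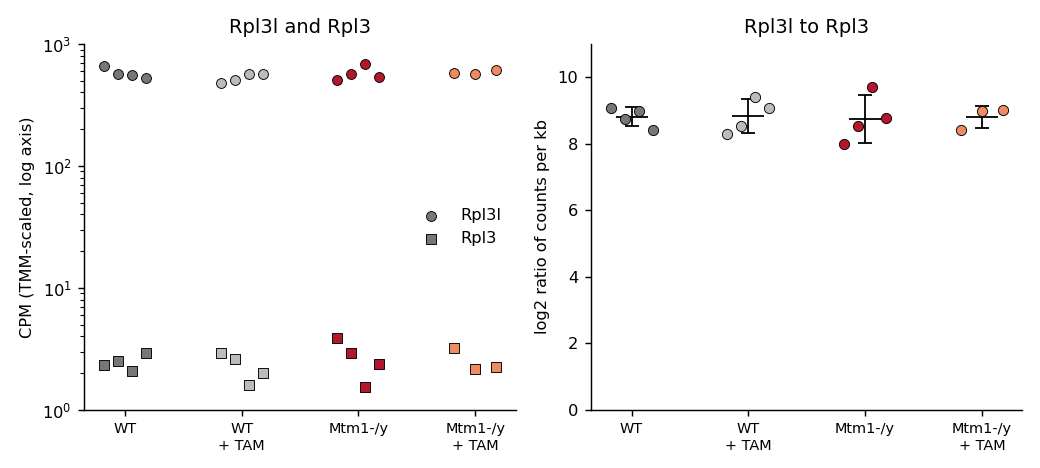
Left, TMM-scaled CPM of *Rpl3l* (circles) and *Rpl3* (squares) per library on a log axis. Right, log2 ratio of counts per kb of merged exons, with group mean and SD. The mean log2 ratio is between 8.75 and 8.83 in all 4 groups.

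The other paralogue pairs were described in the same way. *Rps27l*, which p53 induces, was at 30.1, 28.2, 26.6 and 26.7 CPM in WT and at 40.8, 39.1, 38.4 and 36.2 CPM in Mtm1-/y. It rose between the untreated genotypes (log2 fold change 0.47, SE 0.08, edgeR adjusted p = 0.000436) and between the treated genotypes (0.41, SE 0.08, edgeR adjusted p = 0.00297), and both calls held in all 26 alternative fits. *Rps27* had 5 to 35 counts and a log2 fold change of 0.57 (SE 0.41, edgeR adjusted p = 0.316). *Rpl22* rose by 0.32 (SE 0.09, edgeR adjusted p = 0.0138), and *Rpl22l1*, its paralogue, had 0.19 (SE 0.16, edgeR adjusted p = 0.394).

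*Rpl7l1* had a log2 fold change of -0.10 (SE 0.12, edgeR adjusted p = 0.579), *Rpl36a* of -0.04 (SE 0.28, edgeR adjusted p = 0.933) and *Rpl36al* of 0.20 (SE 0.22, edgeR adjusted p = 0.538). *Rpl39* had 0.30 (SE 0.11, edgeR adjusted p = 0.0532), and *Rpl39l*, known from the testis, was not tested. *Rpl10l* was not analysed here. The log2 ratio of counts per kb in WT was -1.55 ± 0.33 for *Rpl22l1* to *Rpl22*, 6.45 ± 0.57 for *Rps27l* to *Rps27*, 1.35 ± 0.57 for *Rpl36al* to *Rpl36a* and -1.96 ± 0.06 for *Rpl7l1* to *Rpl7* (SD, n = 4). These 4 means differed from WT by at most 0.26 in the other groups. The log2 ratio of *Rpl39l* to *Rpl39* was -6.22 ± 0.42 in WT and -5.16 ± 0.32 in WT + TAM (SD, n = 4), without overlap, but *Rpl39l* had 0 to 6 counts in any library, so the ratio was not tested.

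*Rack1*, a ribosome component under another name, had a log2 fold change of 0.19 between the untreated genotypes (SE 0.11, edgeR adjusted p = 0.187). *Fau* was not tested. Other lists of the translation machinery were counted in this comparison, in which 15.5% of all tested genes rose and 14.9% fell. Of 37 genes in the list of initiation and elongation factors, which also held *Tpt1* and *Pabpc4*, 11 rose and 4 fell. The median log2 fold change was 0.16. *Eef1a1*, an elongation factor that mature fibres replace with *Eef1a2*, had the largest increase (1.45, SE 0.28, edgeR adjusted p = 0.00197). *Tpt1*, a translationally controlled TOP mRNA, rose by 1.31 (SE 0.22, edgeR adjusted p = 0.000597), and *Eif4e*, the cap-binding factor, fell by 0.57 (SE 0.14, edgeR adjusted p = 0.00814), as did *Pabpc4*, a poly(A)-binding protein, by 0.54 (SE 0.14, edgeR adjusted p = 0.00741).

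Of 47 tested ribosome biogenesis factors 13 rose and 1 fell, with a median of 0.19. *Noc4l* (0.56, SE 0.12, edgeR adjusted p = 0.00222) and *Rrs1* (0.55, SE 0.17, edgeR adjusted p = 0.0217) were highest, and *Dkc1*, the pseudouridine synthase of the nucleolus, fell by 0.36 (SE 0.09, edgeR adjusted p = 0.00729). *Noc2l*, a nucleolar complex protein, had the smallest increase that was called (0.24, SE 0.08, edgeR adjusted p = 0.0292). Of 15 tested genes of the RNA polymerase I machinery 2 rose and 1 fell, with a median of 0.05. *Polr1d*, a subunit of polymerases I and III, rose by 0.30 (SE 0.10, edgeR adjusted p = 0.0391), *Ubtf*, the upstream binding factor, by 0.23 (SE 0.09, edgeR adjusted p = 0.049), and *Ttf1*, the termination factor, fell by 0.51 (SE 0.12, edgeR adjusted p = 0.00617).

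Of 24 genes in the list of the mTOR and S6 kinase pathway, which also held kinases of the RSK family, 5 rose and 3 fell, with a median of 0.07. *Ddit4* and *Sesn1*, which restrain mTOR complex 1, rose by 1.59 (SE 0.41, edgeR adjusted p = 0.0105) and 1.58 (SE 0.46, edgeR adjusted p = 0.0202). *Sesn1* was at 154 CPM in Mtm1-/y replicate 1 and between 28.4 and 42.3 CPM in the other 3 libraries of that group. *Rps6ka1* and *Rps6ka2*, kinases of the RSK family, fell by 1.18 (SE 0.17, edgeR adjusted p = 0.000184) and 0.71 (SE 0.11, edgeR adjusted p = 0.000246). The median over all genes was 0.0005.

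Markers of other cell types and fibre states differed between Mtm1-/y and WT. All 6 genes of regenerating or developmental muscle rose in Mtm1-/y, with a summed level of 55.7 to 70.6 CPM in WT and 189.7 to 372 CPM in Mtm1-/y. All 4 endothelial genes fell, from 374 to 485 CPM in WT to 193 to 257 CPM in Mtm1-/y, and 3 of 4 satellite cell genes fell, from 12.6 to 16.6 CPM to 3.74 to 5.57 CPM. All 3 tested of 4 proliferation genes fell, from 5.29 to 19.1 CPM to 0.235 to 1.86 CPM. The proliferation genes summed to 0.796 to 7.14 CPM in WT + TAM and to 1.27 to 5.004 CPM in Mtm1-/y + TAM, with 0 called between the treated genotypes, so the untreated WT group had the highest values, overlapping WT + TAM. In bulk muscle, fewer cells of a type and less RNA per cell cannot be told apart, and the part of these shifts in the ribosomal protein values was not tested.

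Of the other lists, 1 of 7 fast fibre genes, 0 of 5 slow fibre genes, 1 of 7 macrophage genes, 1 of 5 fibroblast genes, 1 of 4 Schwann cell genes, 0 of 4 adipocyte genes and 0 of 5 red blood cell genes were called between Mtm1-/y and WT. Of 5 lymphocyte genes 2 were tested and 1, *Ighm*, fell, and the list summed to 54.3 to 72.6 CPM in WT and to at most 11.8 CPM in each of the other libraries. Slow fibre genes summed to between 36.9 and 195 CPM in 14 libraries and to 1065 CPM in WT + TAM replicate 1. No listed marker was at 0 in all libraries.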

How the data were processed

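RNA of tibialis anterior muscles was sequenced as TruSeq stranded mRNA libraries. The authors deposited raw counts per Ensembl gene, without normalization, and their processing notes list STAR 2.5.3a, HTSeq 0.6.1p1, cutadapt 1.10 and Bowtie2 2.2.8, with GRCm38. The handling of strand and of reads that match several genes is not described in any source used here. Symbols and exons came from GENCODE M21.

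Genes were kept by filterByExpr (minimum count 10), scaled by TMM and fitted with edgeR 4.0.16 (R 4.3.3, quasi-likelihood, 15 libraries, 4 group means, 11 residual degrees of freedom). Genes were called at a Benjamini-Hochberg adjusted p under 0.05 over 15533 genes. CPM and levels per kb (merged exons) were computed from the counts. The *Rpl3l* to *Rpl3* ratio was tested by exact permutation (scipy 1.17.1), two-sided and adjusted over 4 comparisons. Shared windows were found with bwa 0.7.19. The fit was tested on simulated data. Total counts were 18042558 to 45823277. A count of 0 allows up to 3 counts, for counting error only. Replicates were taken as separate mice, as the design describes groups of mice, and p-values measure the spread between these libraries.

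Named members were the paralogue pairs, the stalk genes and *Rpsa*, for each genotype comparison the 5 highest and 5 lowest called log2 fold changes among members whose log2 CPM averaged 1 or more, members called for tamoxifen, and the 3 highest and 3 lowest levels per kb. From each translation list the 2 highest and 2 lowest called genes were named. Results of a few genes are not reported here. Members and lists were chosen with earlier results of these data known. Alternatives were RLE or upper-quartile factors, TMM without the members, other filters, DESeq2 1.42.0, limma-voom (limma 3.58.1), a replicate block, only the groups compared, -ps counts added to parents, a fold threshold, and each library left out.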

Additional observations from a re-analysis of the deposited data

Results flagged for a closer look

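In groups of 4 libraries, 117 sets of values of the named members and summaries were checked for a library far from the others, and 7 stood apart by Dixon's criterion, where chance flags about 1 in 20. In WT, *Rplp2* was at 36.4 CPM in replicate 1 against 22.2 to 24.0 CPM in the others, *Rps14* was at 165 CPM in replicate 3 against 136.6 to 139 CPM, and *Rpl10* was at 2.08 CPM in replicate 4 against 2.61 to 2.66 CPM. In WT + TAM, *Rpl14* was at 34.9 CPM in replicate 3 against 28.6 to 29.6 CPM, and *Rps29*, which was not tested for its low counts, was at 0.204 CPM in replicate 2 against 0.0763 to 0.0965 CPM. In Mtm1-/y replicate 1, *Rplp0* was at 129 CPM against 106.6 to 109.6 CPM and *Rpl32* at 63.1 CPM against 50.8 to 52.3 CPM. The group Mtm1-/y + TAM has 3 libraries and was not checked.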

How the results depend on the processing

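Between Mtm1-/y and WT, the number of members called stayed between 27 and 40 in all alternatives, with *Rpl15* called lower in each, and 30 of the 38 calls held in all 26 alternative fits, while *Rpl36* was not tested in 1 of them and was called in the rest. Between the treated genotypes 4 of the 14 calls held in all of these fits. With no filter on low counts 8 members were called there (9.41%, against 4.27% of all genes higher). At an absolute log2 fold change over 0.5 it was 5, and the share of all genes was not set beside it. With a library left out 5 to 19 were called. In the fits with 5 and with 19, 10.6% and 26.8% of all genes were called in either direction. *Rpl7a* was called lower (-0.46, edgeR adjusted p = 0.0304) without Mtm1-/y replicate 1. For the treated genotypes the replicate block gave 9 (11.1%, against 9.66% of all genes higher), close to the share of all genes. The labels do not say whether the replicate numbers pair the mice, and the deviations did not settle it. Of 21 same-number pairs, 6 had correlated deviations over 0.1 (range -0.11 to 0.31). Pairs of different number ranged from -0.34 to 0.21. The block moved no other count of called members by over 1.5 times. Over all genes it moved the lower calls for tamoxifen in WT from 20 to 8. For tamoxifen in WT, 3 members were called by DESeq2 (3.7%, against 1.19% of all genes higher). With a library left out 0 to 1 were called, with 1 without Mtm1-/y replicate 1 (1.28%, against 0.582%). Without both WT + TAM replicate 1 and Mtm1-/y replicate 1 it was 1 (1.23%, against 1.33%). For the interaction DESeq2 called 2, both negative, beside 0.368% of all genes. For tamoxifen in Mtm1-/y all alternatives called 0. The *Rpl3l* to *Rpl3* ratio passed no test in any alternative, which says nothing about its stability, since no adjusted p under 0.0571 was possible. Members with few counts set the limit of depth, and 16 stayed under 50 counts.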
